A study of Schmidtea mediterranea with 50 samples.

Results

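The lipid-handling transcripts named *pla2* (SMED30011291), *acsl-1* (SMED30005508), *acsl-2* (SMED30013319) and *ttpal* (SMED30034257) were followed across every RNAi condition and day, 4 of the 35057 transcripts in the expression table. The study had picked them for its in situ hybridization screen from transcripts it had listed as lower in the knockdowns on the later days, which are days 12 and 15 of *chd4*(RNAi) and days 12, 15 and 18 of *p53*(RNAi). The late levels are therefore what the choice rested on and are given below as a description without a test, and tests are restricted to days 3, 6 and 9.

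Whole animals of the CIW4 asexual strain of the planarian *Schmidtea mediterranea* were fed dsRNA in 3 meals, one every 3 days from day 0, and polyA RNA was sequenced. *chd4*(RNAi) worms, which lack most transcript of a chromatin remodeling ATPase, were sampled on days 3, 6, 9, 12 and 15, and *p53*(RNAi) worms, which lack most transcript of the p53 family transcription factor, on days 3, 6, 9, 12, 15 and 18. Control worms ate *unc22* dsRNA in the same number of meals and were sampled on the same 6 days. Each of the 17 groups had 3 biological replicates of 10 pooled worms, except *p53*(RNAi) day 18, for which 2 libraries are analysed here, giving 15, 17 and 18 libraries for *chd4*(RNAi), *p53*(RNAi) and control. All groups share the strain and the dsRNA meals in calf liver, given on days 0, 3 and 6, so that worms collected on day 3 had not had all 3 meals. No later meal is described. The number of meals thus runs with the day up to day 6, and the time since the last meal with the day from day 9 on, in knockdown and control worms alike.

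The 4 transcripts encode homologs of proteins of fatty acid and lipid handling, whose roles are known mostly from mammals. Phospholipase A2 enzymes cut an acyl chain from a membrane phospholipid and release a free fatty acid and a lysophospholipid. Long-chain acyl-CoA synthetases, the ACSL family, join free fatty acids to coenzyme A at the cost of ATP, the entry step to both oxidation and lipid synthesis. The alpha-tocopherol transfer protein binds vitamin E and moves it between membranes, and TTPAL is a relative of it in the same CRAL-TRIO family of small lipid carriers. The planarian gut digests and stores dietary lipid, while epidermal cells are made continuously from stem cells called neoblasts through post-mitotic mesenchymal progeny.

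The bases below are the gene-specific ends of the primers with which each gene was cloned from CIW4 cDNA. They are shown because they bound the cloned stretch that each gene name stands for, and their match to the transcripts was not checked here. All capitals are bases specific to the gene, each is written 5′ to 3′, and a leader that most primers share was removed.
pla2 forward: TGAAAGATATTGAAAAATGCTTTGCCG
pla2 reverse: ATTTAATGTTCCAAGAGCCGCTC
acsl-1 forward: GTTCAGCCGCTAATTATCAC
acsl-1 reverse: TCAATGTTGGAGTAAGGAGG
acsl-2 forward: TTAGGACTCGATGTGAAAGC
acsl-2 reverse: ATCTCTCGGAAGTAAGGACC
ttpal forward: CGATCTAGAGCACATTTAGTTGGC
ttpal reverse: TCAACGGAAATATTTGCCCACG

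Levels are in RPKM, reads scaled to transcript length and to the total reads of the library, which allows levels of different transcripts to be compared per length. The libraries held about 13900000 to 26300000 reads. A *pla2* transcript of 598 bases carried 16 to 764 reads per library, *acsl-1* (2206 bases) 464 to 3994, *acsl-2* (2136 bases) 3852 to 11978 and *ttpal* (1138 bases) 91 to 947, so counting error was smallest for *acsl-2* and largest for *pla2* late in *chd4*(RNAi). The targeted transcript *chd4* was at 24.5 to 28.2% of control and *p53* at 5.21 to 29.0%, below every control library of the day in all 15 and 17 knockdown libraries. *p53*(RNAi) day 9 replicate 1 correlated least with its own replicates (mean r 0.981 across transcripts). Outside that group *unc22*(RNAi) day 12 replicate 1 was lowest, at 0.986, on a day that enters no test. *unc22*(RNAi) day 6 replicate 2, at 0.987, was set apart on earlier results of these data and not on this r. The tests were repeated with this control library and replicate 1 of the *p53*(RNAi) day 9 group left out.

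In control worms *acsl-2* was the most abundant of the 4 per length, with 183 to 274 RPKM over the 18 libraries (median 226). *acsl-1* ran from 62.9 to 85.9 RPKM in controls, *pla2* from 37.0 to 57.7 and *ttpal* from 26.5 to 37.3. Days 3 and 9 were not used in the choice of genes, and between them none of the 4 passed the test in controls. The log2 changes (day 9 minus day 3) were 0.07 to 0.19, with adjusted p 0.62 to 0.85 (limma). Over all transcripts 0.578% were called lower and 0.355% higher. At an unadjusted p under 0.05 it was also 0 of 4, and the share of all transcripts at that cutoff was not counted. Beyond day 9 the control levels are a description: *acsl-2* stood at 274, 274 and 248 RPKM on day 18 against 192, 191 and 183 on day 3, without overlap, while *pla2* stood at 47.4, 42.7 and 37.0 RPKM on day 18 against 48.4, 48.7 and 48.7 on day 3, also without overlap.

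*pla2*, the phospholipase, fell in both knockdowns from day 6, and further after *chd4*(RNAi). On day 3 it had 43.0, 44.9 and 40.9 RPKM in *chd4*(RNAi) worms, 45.9, 40.2 and 37.4 in *p53*(RNAi) worms and 48.4, 48.7 and 48.7 in control worms. All 6 knockdown libraries lay below the 3 controls, but neither difference passed the test (*chd4* log2 -0.18, SE 0.11, adjusted p = 0.74; *p53* -0.24, SE 0.11, adjusted p = 0.60; limma across all transcripts). By day 6 *pla2* had 26.6, 22.9 and 21.3 RPKM in *chd4*(RNAi), 34.7, 33.4 and 35.7 in *p53*(RNAi) and 54.3, 57.0 and 53.4 in control worms. The 3 groups did not overlap, and both knockdowns passed the test (*chd4* log2 -1.20, SE 0.11, adjusted p = 3.9e-10; *p53* -0.66, SE 0.11, adjusted p = 8.5e-05). On day 9 it had 9.15, 7.27 and 8.31 RPKM in *chd4*(RNAi), 28.4, 24.2 and 26.2 in *p53*(RNAi) and 57.7, 56.8 and 51.6 in control worms, which is 14.9% of control in *chd4*(RNAi) and 47.4% in *p53*(RNAi) (log2 -2.68, adjusted p = 2.4e-21, and -1.06, adjusted p = 9.2e-10). Since whole worms were sequenced, fewer cells that express a gene and less of its RNA per cell cannot be told apart, here and for every level that follows.

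The late levels of *pla2*, on which it was chosen, continued downwards. It had 3.89, 4.36 and 4.08 RPKM in *chd4*(RNAi) on day 12, 14.4, 17.03 and 14.3 in *p53*(RNAi) and 47.8, 47.6 and 57.3 in control worms. On day 15 the values were 1.46, 1.801 and 2.49 in *chd4*(RNAi), 12.3, 9.58 and 11.7 in *p53*(RNAi) and 47.2, 44.1 and 43.6 in control worms. *chd4*(RNAi) was thus at 4.27% of control and *p53*(RNAi) at 24.9%. *p53*(RNAi) day 18 worms had 6.22 and 4.78 RPKM (13.0% of the 47.4, 42.7 and 37.0 RPKM in control worms). In the order of its 17 group means, 9 of the 16 neighbouring pairs did not overlap, the most of the 4 genes, and the 9 lowest places were all held by knockdown groups of day 6 or later. Among those 9, *p53*(RNAi) day 9 and *chd4*(RNAi) day 6 overlapped and the other neighbours did not.

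**Figure D1:**
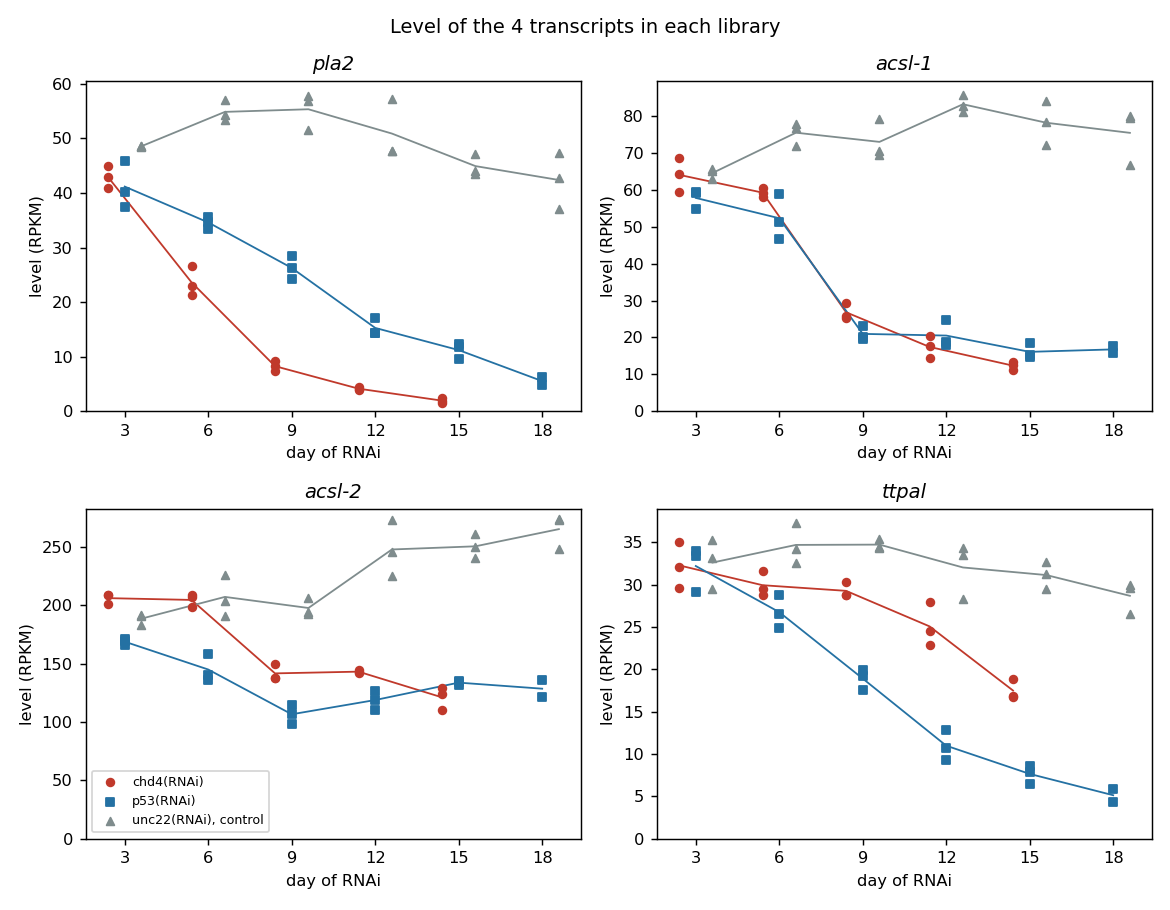
Level in RPKM (vertical axes, from 0) of each of the 4 transcripts in each library against day of RNAi, with *chd4*(RNAi) as circles, *p53*(RNAi) as squares and the *unc22*(RNAi) control as triangles, offset sideways for clarity; lines join group means. *pla2* lies below control in both knockdowns from day 3, and those groups no longer overlap each other from day 6. *acsl-1* drops between days 6 and 9, and *ttpal* keeps 84.3% of its control level on day 9 of *chd4*(RNAi).

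*acsl-1*, one of the acyl-CoA synthetases, had its largest step down between days 6 and 9 in both knockdowns. On day 3 it had 68.6, 64.3 and 59.5 RPKM in *chd4*(RNAi), 54.9, 59.4 and 59.3 in *p53*(RNAi) and 65.8, 62.9 and 65.2 in control worms, and neither knockdown passed the test (log2 -0.01, adjusted p = 0.99, and -0.16, adjusted p = 0.81). Day 6 levels were 59.2, 58.2 and 60.5 RPKM in *chd4*(RNAi), 58.9, 51.5 and 46.8 in *p53*(RNAi) and 77.8, 76.9 and 72.0 in control worms. Both knockdowns were below all controls and passed (log2 -0.35, SE 0.10, adjusted p = 0.031, and -0.53, SE 0.10, adjusted p = 0.00070). The *chd4*(RNAi) call on day 6 was lost without any of that group's 3 libraries or without *unc22*(RNAi) day 6 replicate 1 or 2 (adjusted p 0.077 to 0.11), and without the 2 libraries named above it had adjusted p = 0.090. On day 9 *acsl-1* had 29.2, 25.9 and 25.4 RPKM in *chd4*(RNAi), 23.2, 20.2 and 19.5 in *p53*(RNAi) and 79.2, 70.6 and 69.5 in control worms. That is 36.7% and 28.7% of control in *chd4*(RNAi) and *p53*(RNAi) (log2 -1.43, adjusted p = 2.8e-14, and -1.78, adjusted p = 9.2e-17).

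From day 9 on, *acsl-1* changed less in *p53*(RNAi) than it had before. It had 14.4, 20.3 and 17.6 RPKM in *chd4*(RNAi), 18.8, 24.8 and 17.9 in *p53*(RNAi) and 81.3, 85.9 and 82.7 in control worms on day 12. On day 15 it had 12.5, 11.1 and 13.4 in *chd4*(RNAi), 18.4, 14.7 and 15.2 in *p53*(RNAi) and 84.2, 72.2 and 78.4 in control worms. *p53*(RNAi) day 18 gave 17.7 and 15.8 RPKM against 80.2, 79.6 and 66.9 in control worms, so that *p53*(RNAi) stood between 20.5 and 28.7% of control from day 9 to day 18, and *chd4*(RNAi) reached 15.8%.

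*acsl-2*, the other synthetase, fell in *p53*(RNAi) from day 6 and in *chd4*(RNAi) from day 9. On day 3 it had 209, 201 and 209 RPKM in *chd4*(RNAi), 166, 171 and 169.5 in *p53*(RNAi) and 192, 191 and 183 in control worms. The *chd4*(RNAi) libraries were all above the controls and the *p53*(RNAi) libraries all below, but neither passed the test against control (log2 0.13, adjusted p = 0.63, and -0.16, adjusted p = 0.50). On day 6 it had 209, 207 and 198 RPKM in *chd4*(RNAi), 159, 141 and 136 in *p53*(RNAi) and 204, 226 and 191 in control worms. *chd4*(RNAi) overlapped control (log2 -0.01, adjusted p = 0.94), whereas *p53*(RNAi) was lower (log2 -0.51, SE 0.07, adjusted p = 5.1e-07). Day 9 levels were 150.2, 137 and 138 RPKM in *chd4*(RNAi), 115, 98.2 and 107 in *p53*(RNAi) and 206, 195 and 193 in control worms, and both passed (log2 -0.48, SE 0.07, adjusted p = 2.5e-07, and -0.89, SE 0.07, adjusted p = 1e-13).

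After day 9 *acsl-2* averaged higher in control worms than before, and in *p53*(RNAi) worms it stood, as percent of control, above the other 3 members on days 12, 15 and 18. On day 12 it had 143, 145 and 142 RPKM in *chd4*(RNAi), 119, 127 and 110.4 in *p53*(RNAi) and 273, 246 and 225 in control worms. On day 15 the values were 129, 111 and 124 in *chd4*(RNAi), 131, 135 and 135 in *p53*(RNAi) and 261, 250.1 and 241 in control worms. *p53*(RNAi) day 18 gave 136 and 121 RPKM against 274, 274 and 248 in control worms. The percentage of control, 48.4% in *chd4*(RNAi) and 53.4% in *p53*(RNAi) on day 15, thus reflects the higher control level as well as the lower knockdown level.

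*ttpal*, the lipid carrier relative, was on day 9 the member that stood highest in *chd4*(RNAi) relative to *p53*(RNAi), the direction opposite to *pla2*. On day 3 it had 35.0, 29.6 and 32.1 RPKM in *chd4*(RNAi), 34.0, 33.4 and 29.2 in *p53*(RNAi) and 35.2, 29.5 and 33.1 in control worms, 3 overlapping groups (log2 -0.01 and -0.02, both adjusted p = 0.99). On day 6 it had 31.6, 29.5 and 28.7 RPKM in *chd4*(RNAi), 28.7, 26.6 and 24.9 in *p53*(RNAi) and 34.2, 37.3 and 32.6 in control worms. Both knockdowns lay below all controls, and *p53*(RNAi) passed the test (log2 -0.37, SE 0.10, adjusted p = 0.028) while *chd4*(RNAi) did not (-0.21, SE 0.10, adjusted p = 0.24). The *p53*(RNAi) call was lost without *p53*(RNAi) day 6 replicate 2 or 3 or *unc22*(RNAi) day 6 replicate 1 or 2 (adjusted p 0.071 to 0.18), and without the 2 libraries named above it had adjusted p = 0.16. On day 9 *ttpal* had 28.7, 28.8 and 30.3 RPKM in *chd4*(RNAi), 19.97, 17.5 and 19.2 in *p53*(RNAi) and 34.5, 34.3 and 35.4 in control worms. *p53*(RNAi) fell to 54.5% of control (log2 -0.86, SE 0.10, adjusted p = 1.1e-08). *chd4*(RNAi), at 84.3% and below all 3 controls, did not pass (log2 -0.24, SE 0.10, adjusted p = 0.072), but passed when only the groups of that contrast were fitted (adjusted p = 0.0017).

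Late *ttpal* levels kept that order. On day 12 it had 24.5, 27.9 and 22.8 RPKM in *chd4*(RNAi), 9.31, 12.9 and 10.8 in *p53*(RNAi) and 34.3, 33.4 and 28.3 in control worms. On day 15 it had 18.9, 16.7 and 16.8 in *chd4*(RNAi), 8.62, 6.51 and 7.84 in *p53*(RNAi) and 32.6, 29.5 and 31.3 in control worms, or 56.2% of control in *chd4*(RNAi) and 24.6% in *p53*(RNAi). *p53*(RNAi) day 18 worms had 5.88 and 4.40 RPKM against 29.9, 26.5 and 29.6 in control worms (17.9%).

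Counted over the members, 0 of 4 passed the test on day 3 of either knockdown. Of all 25079 tested transcripts, 0.159% were called lower in *chd4*(RNAi) and 0.694% in *p53*(RNAi), and 0.179% and 0.0797% higher. At an unadjusted p under 0.05 (limma) there were 0 of 4 in *chd4*(RNAi) and 2 of 4 in *p53*(RNAi). The share of all transcripts at that cutoff was not counted, so these unadjusted counts have no background beside them. On day 6, 2 of 4 were lower in *chd4*(RNAi), where 3.84% of all transcripts were lower and 3.11% higher, and 4 of 4 in *p53*(RNAi), where 2.15% were lower and 1.08% higher. Without the 2 libraries named above these counts were 1 and 3, with *pla2* at log2 -1.18 in *chd4*(RNAi), and *pla2* at -0.63, *acsl-1* at -0.52 and *acsl-2* at -0.45 in *p53*(RNAi) (adjusted p of 0.0049 or lower). On day 9 there were 3 of 4 in *chd4*(RNAi) against a background of 12.5% lower and 13.1% higher, and 4 of 4 in *p53*(RNAi) against 11.5% lower and 12.3% higher. Without the same libraries the day 9 changes in *p53*(RNAi) were -1.12 for *pla2*, -1.85 for *acsl-1*, -0.94 for *acsl-2* and -0.90 for *ttpal*, all still past the threshold. No member was called higher on any of these days. Since the members were chosen as lower on later days in the same knockdowns, these shares describe when their decline was first measurable and nothing more.

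**Figure D2:**
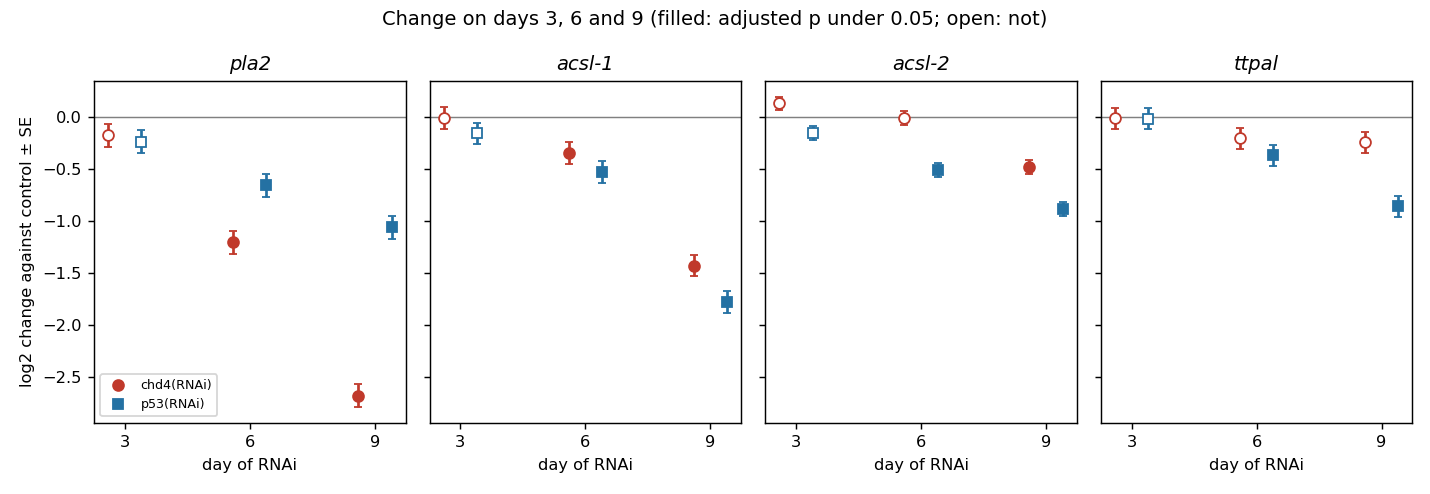
Log2 change against control (vertical axis) with its SE on days 3, 6 and 9 for each transcript, *chd4*(RNAi) as circles and *p53*(RNAi) as squares; filled symbols passed an adjusted p under 0.05 (limma). On day 9 *pla2* is at -2.68 in *chd4*(RNAi) and -1.06 in *p53*(RNAi), and *ttpal* at -0.24 and -0.86.

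Whether each effect grew was tested as the day 9 effect minus the day 3 effect. In *chd4*(RNAi) it grew for *pla2* (log2 -2.50, SE 0.16), *acsl-1* (-1.42, SE 0.15) and *acsl-2* (-0.61, SE 0.09), with adjusted p of 5.9e-06 or lower, and for *ttpal* the growth did not pass (-0.23, SE 0.14, adjusted p = 0.35). In *p53*(RNAi) it passed for all 4, at -0.82 for *pla2*, -1.62 for *acsl-1*, -0.73 for *acsl-2* and -0.84 for *ttpal*, with adjusted p of 0.00034 or lower. Without the 2 libraries named above these were -0.88, -1.69, -0.78 and -0.88, and all 4 passed. Lower calls in this contrast made up 7.28% of all transcripts in *chd4*(RNAi) and 5.07% in *p53*(RNAi), and higher calls 5.28% and 5.14%.

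The knockdowns were also compared with each other directly, without the control. On day 3 only *acsl-2* differed, higher in *chd4*(RNAi) (log2 0.29, SE 0.07, adjusted p = 0.011), 1 of 4 members where 1.61% of all transcripts were called higher and 0.494% lower. That call was lost without *chd4*(RNAi) day 3 replicate 1 or *p53*(RNAi) day 3 replicate 1 (adjusted p = 0.060 each). On day 6 *pla2* was lower (log2 -0.55, SE 0.11, adjusted p = 0.00069) and *acsl-2* higher in *chd4*(RNAi) (0.50, SE 0.07, adjusted p = 8.7e-07), with 4.89% of transcripts lower and 5.08% higher. *acsl-1* (0.18, adjusted p = 0.30) and *ttpal* (0.16, adjusted p = 0.37) did not pass on that day. By day 9 all 4 differed. *pla2* was lower in *chd4*(RNAi) (log2 -1.62, SE 0.11, adjusted p = 8.8e-15), where 14.7% of transcripts were. *ttpal* (0.62, SE 0.10, adjusted p = 7e-06), *acsl-2* (0.41, SE 0.07, adjusted p = 6.7e-06) and *acsl-1* (0.35, SE 0.10, adjusted p = 0.0093) were higher in *chd4*(RNAi), where 12.5% of transcripts were. The *acsl-1* difference was lost without *chd4*(RNAi) day 9 replicate 1 (log2 0.29, adjusted p = 0.065). Without the 2 libraries named above the day 9 differences were -1.56 for *pla2*, 0.66 for *ttpal*, 0.46 for *acsl-2* and 0.42 for *acsl-1*, and all 4 passed.

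As a ratio of means, the day 15 differences between knockdowns were wider for *pla2* and *ttpal* than for *acsl-1* and *acsl-2*, again as a description. *pla2* averaged 1.92 ± 0.523 RPKM in *chd4*(RNAi) and 11.2 ± 1.43 in *p53*(RNAi) (SD, n = 3 each), 5.84 times as much in *p53*(RNAi). *ttpal* averaged 17.5 ± 1.22 RPKM in *chd4*(RNAi) and 7.66 ± 1.07 in *p53*(RNAi), 2.29 times as much in *chd4*(RNAi). For *acsl-2* the order turned, with *chd4*(RNAi) higher on day 12 (143 ± 1.44 RPKM, against 119 ± 8.27 in *p53*(RNAi)) and lower on day 15 (121 ± 9.55 against 134 ± 2.15), without overlap of libraries on either day. *acsl-1* overlapped between knockdowns on day 12 and was 1.30 times higher in *p53*(RNAi) on day 15.

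**Figure D3:**
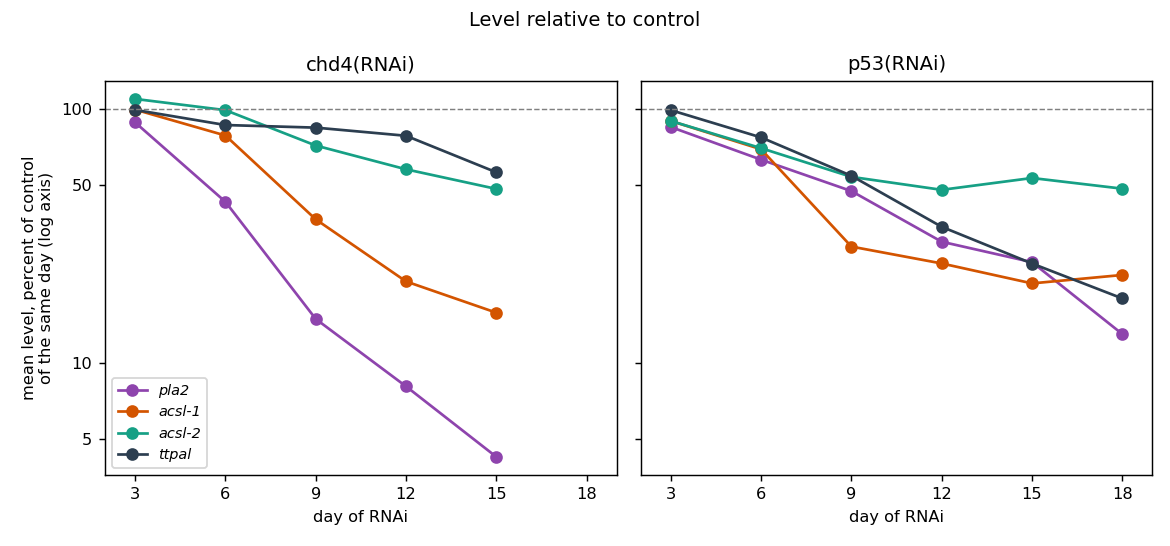
Mean level as percent of the control of the same day (log axis) against day of RNAi for the 4 transcripts, *chd4*(RNAi) on the left and *p53*(RNAi) on the right; the dashed line marks 100. In *chd4*(RNAi) the day 15 levels spread from 4.27% (*pla2*) to 56.2% (*ttpal*), while in *p53*(RNAi) *acsl-2* stands at 53.4% and the other 3 between 20.5 and 24.9%.

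Markers of the cell types a whole worm holds were read beside these courses. *nkx-2.2*, a homeobox gene of the gut, was at 90.4% of control in *chd4*(RNAi) and 86.3% in *p53*(RNAi) on day 6, without passing the test, and at 49.6% and 44.0% on day 9 (adjusted p = 6e-07 in *chd4*(RNAi) and 3.3e-08 in *p53*(RNAi)), the interval in which *acsl-1* dropped to 36.7% and 28.7%. *AGAT-1*, a marker of late mesenchymal progeny of the epidermal lineage, was lower in *p53*(RNAi) from day 3 (66.1%, adjusted p = 0.00016) and in both knockdowns on day 6, at 53.6% in *chd4*(RNAi) and 52.8% in *p53*(RNAi) (adjusted p = 1.2e-08 and 4.7e-09). On day 9 *AGAT-1* was at 35.9% in *chd4*(RNAi) and 33.3% in *p53*(RNAi), nearer to *acsl-1* than *nkx-2.2* was. *zpuf-6*, of mesenchymal and epidermal progeny, was at 78.1% in *chd4*(RNAi) and 52.0% in *p53*(RNAi) on day 15, the same order of the knockdowns as *ttpal*. *vim-3*, of the epidermis, was at 100.0% in *chd4*(RNAi) and 70.0% in *p53*(RNAi) on day 9, and this difference passed the test (log2 0.52, adjusted p = 3.4e-06). The neoblast marker *smedwi-1* stood above control on day 9, at 116% in *chd4*(RNAi) and 128% in *p53*(RNAi), and passed in *p53*(RNAi) (adjusted p = 0.016) but not in *chd4*(RNAi) (adjusted p = 0.18). Without the 2 libraries named above that *p53*(RNAi) call was lost (log2 0.35, adjusted p = 0.051), while *nkx-2.2* (log2 -1.26), *AGAT-1* (-1.66) and *vim-3* (-0.61) stayed lower than control in *p53*(RNAi) on day 9 (adjusted p of 4.4e-07 or lower). Later *smedwi-1* was at 137% of control in *chd4*(RNAi) and 72.3% in *p53*(RNAi) on day 12, at 91.7% and 38.7% on day 15, and at 13.2% in *p53*(RNAi) on day 18, given without a test. *smedwi-1* thus moved down in *p53*(RNAi) over the days on which *ttpal* was lowest there. On days 6 and 9 of *p53*(RNAi), however, *smedwi-1* was at 126% and 128% of control while *ttpal* was at 77.1% and 54.5%. Over group means *ttpal* had r = 0.88 with *smedwi-1*, 0.88 with *AGAT-1*, 0.87 with *vim-3* and 0.96 with *zpuf-6*. By in situ hybridization the study placed *pla2*, *acsl-1* and *acsl-2* in gut, epidermal progeny and epidermis. It placed *ttpal* in *AGAT-1*-positive and further mesenchymal cells. The part of the marked cell types in the members' changes was not tested.

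Transcripts that the study had placed in the gut by in situ hybridization, and those with an *AGAT-1* mesenchymal pattern, were read over the same days. Both sets had been picked by the study as lower in these samples, so their direction is not independent evidence. Of 21 gut transcripts, 21 were lower in *chd4*(RNAi) and 20 in *p53*(RNAi) on day 9 (median log2 -1.20 and -0.64; all transcripts -0.01 and 0.00), against 9 and 1 on day 6 (5 and 0 without the 2 libraries named above). Of 39 *AGAT-1* pattern transcripts, 1 was lower in *chd4*(RNAi) and 23 in *p53*(RNAi) on day 3, 34 and 39 on day 6, and 36 and 39 on day 9. Without those libraries the counts were 1 and 26 on day 3, 32 and 37 on day 6, and 36 and 39 on day 9. Over all transcripts the lower calls were 0.159% in *chd4*(RNAi) and 0.694% in *p53*(RNAi) on day 3, 3.84% and 2.15% on day 6, and 12.5% and 11.5% on day 9. The part of either set's cells in the members' courses was not tested.

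The 17 group means of log2(RPKM + 0.5) were correlated as a description, with points that share libraries. Among the 5 markers, *acsl-1* ran closest to *AGAT-1* (Pearson r = 0.95, against 0.90 with *nkx-2.2*), as did *acsl-2* (0.81). *pla2* ran closest to *nkx-2.2* (0.91, against 0.88 with *AGAT-1*) and *ttpal* to *zpuf-6* (0.96, against 0.88 with *AGAT-1*). Among themselves *pla2* and *acsl-1* were alike at r = 0.90, *acsl-1* and *acsl-2* at 0.89, and *pla2* and *ttpal* at 0.59. Within groups, the deviations of the members from their group means correlated with each other at r of 0.26 to 0.55 over the 50 libraries. Across all transcripts tested, the closest to *pla2* were a Rab-27B homolog (SMED30003458, r = 0.99), 2-acylglycerol O-acyltransferase 2-A (SMED30021265, 0.99), an enzyme that makes diacylglycerol from monoacylglycerol, and an Mpv17-like 2 homolog (SMED30035157, 0.99). The r compares the shape of a course and not the size of the change. On day 15 these were at 33.0%, 45.3% and 10.7% of control in *chd4*(RNAi), against 4.27% for *pla2*. In *p53*(RNAi) they were at 62.1%, 76.5% and 27.3%, against 24.9% for *pla2*. *acsl-1* ran closest to folylpolyglutamate synthase (SMED30010830, r = 0.99), SMED30021944 and SMED30034650 (0.99 each), *acsl-2* to SMED30012767 (0.98), SMED30020041 (0.97) and ubiquitin-60S ribosomal protein L40 (SMED30019420, 0.95), and *ttpal* to calcium-binding protein A (SMED30011700), SMED30002992 and SMED30008921 (0.98 each). On day 15 folylpolyglutamate synthase was at 53.7% of control in *chd4*(RNAi) and 59.7% in *p53*(RNAi), against 15.8% and 20.5% for *acsl-1*. SMED30021944 (13.4% and 18.2%) and SMED30034650 (11.5% and 22.8%) were nearer to *acsl-1*. SMED30021944, SMED30034650 and SMED30019420 were low, averaging 2.94, 3.40 and 2.05 RPKM in control worms.

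**Figure D4:**
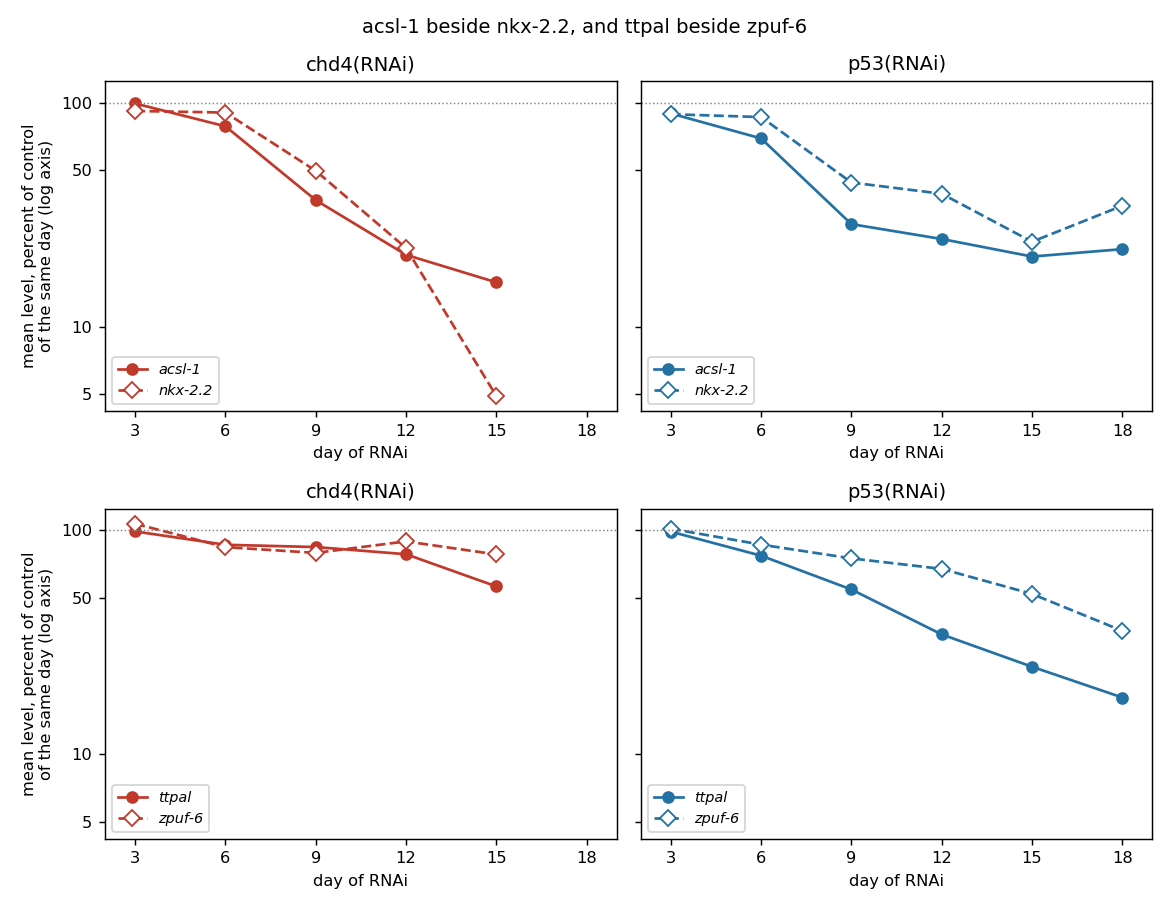
Mean level as percent of control of the same day (log axis) against day of RNAi, with *acsl-1* beside the gut marker *nkx-2.2* in the upper row and *ttpal* beside the progeny marker *zpuf-6* in the lower row, *chd4*(RNAi) on the left and *p53*(RNAi) on the right; the dotted line marks 100. *nkx-2.2* reached 4.89% of control in *chd4*(RNAi) on day 15, where *acsl-1* was at 15.8%, and *AGAT-1*, to which *acsl-1* ran closer (r = 0.95), is not drawn.

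The other lipid transcripts that the study's tables describe by Swiss-Prot homology were read in 7 lists, 51 transcripts with the 4 members left out. The tables hold transcripts that the study selected as lower or higher in either or both knockdowns on later days of these samples. Neither the direction of a list nor its difference between the knockdowns is therefore independent evidence. Day 9 of *chd4*(RNAi) had 45 lower transcripts and 1 higher one among the 51 (median log2 -0.61), and day 9 of *p53*(RNAi) had 29 lower and 4 higher ones (median -0.23). Over all transcripts the medians were -0.01 and 0.00, with 12.5% lower and 13.1% higher in *chd4*(RNAi) and 11.5% lower and 12.3% higher in *p53*(RNAi). Without the 2 libraries named above the day 9 counts were 46 lower and 1 higher, and 32 lower and 4 higher. On day 6, where 3.84% and 2.15% of all transcripts were lower, there were 21 lower and 2 higher in *chd4*(RNAi) and 8 lower and 0 higher in *p53*(RNAi), which became 13 and 2, and 5 and 0, without those libraries.

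All 5 other acyl-CoA synthetases on the list were lower in *chd4*(RNAi) on day 9 (median log2 -0.89), but in *p53*(RNAi) 0 were lower and 3 were higher (median 0.29). SMED30022231, short-chain family member 3, had 4.79 ± 0.241 RPKM in *chd4*(RNAi), against 12.3 ± 1.20 in control worms (log2 -1.27, adjusted p = 5.4e-14), and rose in *p53*(RNAi) (log2 0.34, adjusted p = 0.0066; *chd4* minus *p53* -1.61, adjusted p = 7.1e-17). SMED30000562, of the same family, had 49.8 ± 1.17 RPKM in *chd4*(RNAi), against 92.9 ± 4.66 in control worms (log2 -0.89, adjusted p = 7.1e-16), and did not pass in *p53*(RNAi) (log2 -0.12, adjusted p = 0.12). Both were picked by their *chd4*(RNAi) day 9 values, so a larger fall there than in *p53*(RNAi) was favoured by the choice. The nearest to *acsl-2* by description, a long-chain ACSBG2 homolog (SMED30031947), named after its values were seen, averaged 51.4 ± 2.80 RPKM in *chd4*(RNAi) worms, 100.2 ± 6.88 in *p53*(RNAi) worms and 71.2 ± 2.37 in control worms (log2 -0.47, adjusted p = 5.3e-08, and 0.49, adjusted p = 3.5e-08).

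Among 5 other phospholipases, 4 were lower in *chd4*(RNAi) and 3 in *p53*(RNAi) on day 9. A second phospholipase A2 (SMED30015364) had 23.7 ± 3.19 RPKM in *chd4*(RNAi) and 26.01 ± 3.39 in *p53*(RNAi), against 41.4 ± 6.68 in control worms (log2 -0.79, adjusted p = 1.2e-06, and -0.66, adjusted p = 4.5e-05). Its difference between the knockdowns did not pass (log2 -0.13, SE 0.12, adjusted p = 0.45). ABHD3 (SMED30000542), a phospholipase of the alpha/beta hydrolase fold, was lower by less (log2 -0.35 in *chd4*(RNAi) and -0.20 in *p53*(RNAi), adjusted p = 3.7e-07 and 0.0019).

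Of 12 lipid transfer and carrier proteins, 9 were lower in each knockdown on day 9, and 1 was higher in *p53*(RNAi). The higher one was a transcript described as alpha-tocopherol transfer protein-like, as *ttpal* is (SMED30017805; 4.13 ± 1.06 RPKM in *p53*(RNAi), against 2.06 ± 0.0795 in control worms, log2 0.83, adjusted p = 0.00091), named after its values were seen. Another of that description (SMED30028995) fell in both knockdowns, to 2.74 ± 0.125 RPKM in *chd4*(RNAi) and 3.60 ± 0.575 in *p53*(RNAi), against 8.25 ± 0.480 in control worms (log2 -1.43, adjusted p = 2.6e-14, and -1.10, adjusted p = 5.5e-11). One more of that description (SMED30016902), also named after its values were seen, had 27.4 ± 1.43 RPKM in *chd4*(RNAi) and 32.8 ± 4.37 in *p53*(RNAi), against 48.3 ± 1.09 in control worms (log2 -0.81, adjusted p = 7e-13, and -0.56, adjusted p = 1.4e-08). The microsomal triglyceride transfer protein (SMED30015218), which loads lipid onto lipoproteins in mammals, fell in both as well (log2 -1.27 in *chd4*(RNAi), adjusted p = 5.7e-12, and -1.65 in *p53*(RNAi), adjusted p = 5.7e-15).

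The remaining lists were lower in more members after *chd4*(RNAi). Among 9 neutral lipid lipases and droplet proteins, day 9 of *chd4*(RNAi) had 8 lower transcripts and 1 higher one, and day 9 of *p53*(RNAi) had 4 lower ones. The droplet coat protein (SMED30030128), homologous to a *Drosophila* surface-binding protein of lipid storage droplets, had 39.7 ± 0.749 RPKM in *chd4*(RNAi), against 105 ± 6.38 in control worms (log2 -1.39, adjusted p = 4.3e-20), and did not pass in *p53*(RNAi) (log2 0.07, adjusted p = 0.46). A lysosomal acid lipase (SMED30002911), which frees fatty acids from cholesteryl esters and triglycerides, was the higher one, at 10.5 ± 1.29 RPKM in *chd4*(RNAi), against 0.359 ± 0.178 in control worms (log2 3.69 on the scale with 0.5 added, adjusted p = 8.9e-18). The droplet protein and this lipase were also picked by their *chd4*(RNAi) day 9 values.

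Fatty acid elongation enzymes were lower in 6 of 6 in *chd4*(RNAi) and 3 of 6 in *p53*(RNAi), among them the ELOVL7 homolog SMED30030679 (19.2 ± 2.18 RPKM in *chd4*(RNAi), against 65.4 ± 2.74 in control worms, log2 -1.75, adjusted p = 9.4e-22) and the ELOVL4 homolog SMED30010808 (log2 -1.48, adjusted p = 1.1e-14). Fatty acid oxidation had 5 of 5 lower in *chd4*(RNAi) and 4 of 5 in *p53*(RNAi). Carnitine palmitoyltransferase 1 (SMED30027997) was at 37.6 ± 2.21 RPKM in *chd4*(RNAi), against 52.3 ± 2.56 in control worms (log2 -0.47, adjusted p = 8.2e-10). The peroxisomal carnitine octanoyltransferase SMED30015006 was at log2 -0.56 in *chd4*(RNAi) (adjusted p = 2.8e-07). Acyltransferases and phospholipid synthesis enzymes had 8 of 9 lower in *chd4*(RNAi) and 6 of 9 in *p53*(RNAi). Among them in *chd4*(RNAi) were 1-acylglycerol-3-phosphate acyltransferase gamma (SMED30003053, log2 -1.14, adjusted p = 3.3e-19) and 2-acylglycerol O-acyltransferase 2 (SMED30022665, log2 -1.04, adjusted p = 8.4e-17). The elongation, oxidation and acyltransferase enzymes named were also each called lower in *p53*(RNAi) on day 9. Their log2 changes there were -0.43 (SMED30030679), -0.53 (SMED30010808), -0.40 (SMED30027997), -0.31 (SMED30015006), -0.36 (SMED30003053) and -0.49 (SMED30022665). Compared directly, the knockdowns differed for each except SMED30027997 (log2 -0.07, adjusted p = 0.32), with the larger fall after *chd4*(RNAi). These enzymes were picked by their *chd4*(RNAi) day 9 values, which the comparison reuses, so a larger fall there was favoured by the choice.

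**Figure D5:**
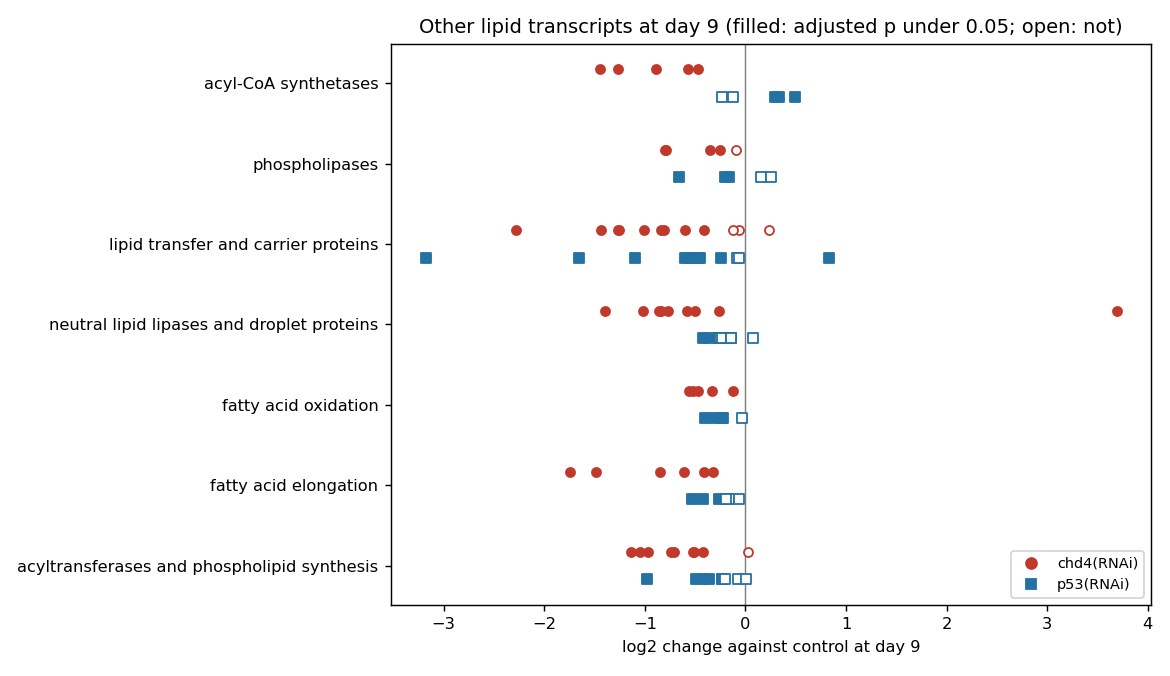
Log2 change against control on day 9 (horizontal axis) of each of the 51 other lipid transcripts by list, *chd4*(RNAi) as circles above *p53*(RNAi) as squares; filled symbols passed an adjusted p under 0.05 (limma). The 5 acyl-CoA synthetases are all below 0 in *chd4*(RNAi), and 3 of them are above 0 and filled in *p53*(RNAi).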

How the data were processed

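RNA-seq of whole worms was deposited by the authors as RPKM per transcript. They sequenced stranded polyA libraries as 50 base single reads and used CASAVA 1.8.2 in demultiplexing them. Reads were aligned with Bowtie and kept if they matched at most 5 places (related transcripts can therefore share reads). In the study, the authors tested counts with edgeR. The scaling step to RPKM and the Bowtie version are not given in the sources used here. Transcript lengths and read numbers were recovered from the equal steps of low RPKM values and were used to describe depth only.

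The software was limma 3.58.1 under R 4.3.3, and Python 3.11.15 (numpy 2.4.6, pandas 2.3.3, matplotlib 3.10.9). limma with an intensity trend was fitted to log2(RPKM + 0.5) over all 17 groups, for the 25079 transcripts that reached 1 RPKM in 2 or more libraries (9978 were left out), two-sided, with Benjamini-Hochberg adjustment over all of them and a threshold of 0.05. Fold changes on this scale understate changes of low transcripts. The fit was tested on simulated data. All 4 members passed the filter.

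The members and lists were chosen with earlier results of these data known. Named were the members, the 3 transcripts most like each in pattern, up to 2 per lipid list with the smallest adjusted p over days 3 to 9, and 5 markers. Primer sequences came from the study's primer list. Alternatives were other pseudocounts (0.1 and 2), filters (none and 5 RPKM), median-ratio scaling, no intensity trend, only the groups compared, the replicate number as a block, each replicate left out, and 2 libraries left out; list counts and marker tests without those 2 were added after seeing the data.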

Additional observations from a re-analysis of the deposited data

Results flagged for a closer look

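The test of the day 9 effect minus the day 3 effect picked out 7 of the 8 combinations of member and knockdown, because the effect of RNAi against control differed between the 2 days. In *chd4*(RNAi) the difference was -2.50 on the log2 scale for *pla2*, -1.42 for *acsl-1* and -0.61 for *acsl-2*. In *p53*(RNAi) it was -1.62 for *acsl-1*, -0.84 for *ttpal*, -0.82 for *pla2* and -0.73 for *acsl-2*. The 2 knockdowns share the control libraries of both days. With 2 or 3 libraries a group, the test for a single outlying library, which needs at least 4, was not run.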

How the results depend on the processing

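Of 48 tests on the members, 43 stayed on their side of the threshold in every alternative, and no direction of a called result turned. *ttpal* in *chd4*(RNAi) on day 9 passed when only the groups of the contrast were fitted (log2 -0.24, adjusted p = 0.0017; 0.0017 to 0.16 over all alternatives). With replicate 1 of *p53*(RNAi) day 9 and replicate 2 of *unc22*(RNAi) day 6 left out, 2 day 6 calls were lost, *acsl-1* in *chd4*(RNAi) (log2 -0.33, adjusted p = 0.090) and *ttpal* in *p53*(RNAi) (-0.32, adjusted p = 0.16). Leaving out 1 replicate at a time ended calls for *acsl-1* in *chd4*(RNAi) on day 6 (log2 -0.38 to -0.33), *ttpal* in *p53*(RNAi) on day 6 (-0.42 to -0.32), *acsl-2* in *chd4* minus *p53* on day 3 (0.27 to 0.30) and *acsl-1* in *chd4* minus *p53* on day 9 (0.29 to 0.42). For these 5 results the cause was not tested. The 136 recomputed late levels moved by less than the spread between replicates. For those with 1 replicate left out this was all but fixed in advance. Leaving 1 of 2 or 3 libraries out moves a group mean by less than the SD of that group. Only the levels recomputed with median-ratio scaling could have moved further.

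Same-numbered samples showed no strong pairing: of 18 pairs, 3 had deviations correlated above 0.1 (r -0.04 to 0.15). With the number as a block no member's call changed (*pla2* in *chd4*(RNAi) on day 9, log2 -2.68, adjusted p = 1.8e-20, limma). Calls over all transcripts rose with the block in every contrast, on day 9 of *chd4*(RNAi) to 6651 against 6409 without it. For *acsl-2* in that contrast the SE was 0.058 with the block and 0.066 without it, and for *pla2* 0.112 and 0.111. Whether the number carries a smaller shared effect was not tested. Depth limits *pla2* most, with 16 reads in its lowest library.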
